A study of Mus musculus with 18 samples.

Results

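The collagen genes were taken as every gene of the deposited count table whose symbol has the form Col, a type number, the letter a and a chain number. The rule found 44 of 54532 genes. They comprised 11 fibrillar chains, 6 chains of basement membrane type IV, 2 multiplexins, 9 FACITs (fibril-associated collagens with interrupted triple helices), 6 chains of type VI, 3 chains of the short chain network types VIII and X, 1 anchoring fibril chain (*Col7a1*), 4 transmembrane chains and 2 others, *Col26a1* and *Col28a1*. The libraries came from 10T1/2 cells (CH310T1/2 in the labels), a multipotent mouse fibroblast line. WT cells and 2 lines of FOXS1 KO cells (clone 1 and clone 2) were each sampled uninduced, the controls, and after 1 nM TGF-β1 for 12 h followed by DMII for 48 h, which gave 6 groups of 3 libraries. DMII is the adipogenic medium with dexamethasone, IBMX, insulin and indomethacin. Each KO line was grown from a single cell after CRISPR-Cas9 with a pair of guide RNAs against the *Foxs1* exon, so each genotype other than WT was 1 clone. A difference between a clone and WT therefore cannot be told apart from a difference between single cells of the line, and TGF-β1 cannot be told apart from DMII because no group had only one of them.

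Collagens are triple helices of 3 chains, each with long repeats of glycine and 2 further residues. Types I, III and V form the cross-striated fibrils of connective tissue, with type V at the core of fibrils and type I as their bulk. Type IV chains assemble into the sheet of the basement membrane and type VI chains into beaded filaments around cells. FACITs sit on fibril surfaces, multiplexins next to basement membranes, and type VII anchors basement membranes to the fibrils below. TGF-β1 is a long-known inducer of fibrillar collagen transcription in fibroblasts, and its signal is carried by SMAD factors. FOXS1 belongs to the forkhead family of transcription factors.

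The windows of 4 members are shown because the results turn on these genes: *Col7a1* and *Col15a1* lay far below WT in both clones, and *Col5a1* and *Col3a1* rose in WT cells after stimulation. Each holds the 250 bases before the RefSeq start on GRCm38.p6, read 5′ to 3′ on the gene's strand, which is the plus strand for all 4. The windows are chr9:108953336-108953585 for *Col7a1*, chr4:47207762-47208011 for *Col15a1*, chr2:27886175-27886424 for *Col5a1* and chr1:45311288-45311537 for *Col3a1*, and none of them overlaps an annotated untranslated base. Capitals mark matches, on either strand, to 5 short motifs. They are the forkhead core TAAACA, the box bound by SMAD factors with the letters CAGACA, the CCAAT box, the GC box with the letters GGGCGG and the TATA box with the letters TATAAA.
Col7a1: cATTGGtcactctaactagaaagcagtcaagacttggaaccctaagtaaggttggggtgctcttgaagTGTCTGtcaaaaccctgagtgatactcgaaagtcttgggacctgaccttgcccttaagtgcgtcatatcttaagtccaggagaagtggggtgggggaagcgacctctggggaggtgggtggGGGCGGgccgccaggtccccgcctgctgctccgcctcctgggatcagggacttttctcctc
Col15a1: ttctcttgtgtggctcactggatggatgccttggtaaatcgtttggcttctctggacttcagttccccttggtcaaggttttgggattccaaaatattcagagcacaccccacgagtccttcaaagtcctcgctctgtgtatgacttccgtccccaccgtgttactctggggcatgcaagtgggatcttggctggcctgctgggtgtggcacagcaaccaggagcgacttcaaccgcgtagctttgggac
Col5a1: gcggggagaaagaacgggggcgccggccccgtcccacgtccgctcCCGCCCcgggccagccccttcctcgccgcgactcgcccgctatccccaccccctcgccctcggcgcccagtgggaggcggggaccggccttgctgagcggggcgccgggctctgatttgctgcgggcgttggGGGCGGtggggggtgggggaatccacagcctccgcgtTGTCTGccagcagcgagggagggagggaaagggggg
Col3a1: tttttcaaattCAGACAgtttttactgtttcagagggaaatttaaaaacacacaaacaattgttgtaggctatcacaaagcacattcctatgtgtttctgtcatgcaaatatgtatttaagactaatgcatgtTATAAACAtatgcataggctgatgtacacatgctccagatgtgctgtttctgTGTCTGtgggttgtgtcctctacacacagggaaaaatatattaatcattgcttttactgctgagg
*Col7a1* held 3 matches, a CCAAT box, a SMAD box and a GC box starting 249, 182 and 61 bases before the start. *Col5a1* held 2 GC boxes and 1 SMAD box. *Col3a1* held 2 SMAD boxes with a TATA box and a forkhead core that overlap each other. *Col15a1* held no match to any of the 5. A window was given for 35 of the 44 members, as 38 windows. The forkhead core was found in 6 of these 38 and in 12.0% of the windows of all genes, and the SMAD box in 9 of 38 and 17.1%. The CCAAT box stood in 13 of 38 (33.8% of all windows), the GC box in 22 of 38 (32.7%) and the TATA box in 5 of 38 (12.4%). These are matches of letters and no measure of binding. The gene models lie on chromosome 9 from 108953586 to 108984875 for *Col7a1*, on chromosome 4 from 47208161 to 47313167 for *Col15a1*, on chromosome 2 from 27886425 to 28039514 for *Col5a1* and on chromosome 1 from 45311538 to 45349706 for *Col3a1*.

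Library totals ran from 15576685 to 42005596 counts, and replicates of uninduced WT cells spread most widely (r across genes of 0.963 to 0.983). *Foxs1* itself went against the labels. It had 2.23 ± 0.886 CPM (SD, n = 3) in uninduced WT cells and 2.51 ± 0.642 in stimulated ones, but 25.8 ± 2.04 and 54.5 ± 2.06 in clone 1 and 22.6 ± 1.44 and 39.9 ± 2.59 in clone 2. CPM is a count scaled to the TMM-normalised library size. Transcripts of an edited gene may still be counted, so this is no measure of FOXS1 protein, and every direction below rests on the labels FOXS1 KO. The study's methods name sequencing of the locus and western blots as checks of the clones, and neither was analysed here. Of 6 fibroblast markers, 4 to 6 averaged at least 1 CPM in a group, and none was at 0. *Lum* averaged 10.4 CPM in stimulated WT cells and 0.467 and 0.537 in stimulated clones 1 and 2, and *Thy1* 49.0, 161 and 0.342. In the same groups *Dcn* went the other way from *Lum*, with 6.04, 10.5 and 14.05 CPM. *Pdgfra* averaged 731, 310.5 and 301 CPM there, *Pdgfrb* 875, 677 and 871, and *Vim* 2028, 1943 and 1752. Of 4 contractile markers, *Acta2* alone exceeded 1 CPM, with 274 ± 19.3 CPM in uninduced and 2036 ± 84.4 in stimulated WT cells, against 308 ± 7.30 and 323 ± 23.0 in stimulated clones 1 and 2. Uninduced clone 1 had 419 ± 6.635 CPM of *Acta2* and uninduced clone 2 had 193 ± 6.93, so the clones moved in opposite directions. *Tagln*, *Cnn1* and *Myh11* averaged below 1 CPM in all groups. The summed level of 5 adipocyte markers was 14.1 to 17.9 CPM in stimulated clone 1 and at most 1.18 elsewhere. Most of that sum was *Plin1* (mean 7.78 CPM) and *Cidec* (7.56). *Adipoq* averaged 0.193 CPM in uninduced and 0.207 in stimulated clone 1, and *Lep* and *Cfd* were at 0 in both. Of 4 osteoblast markers, only *Alpl* averaged at least 1 CPM in any group. It went from 0.0127 to 11.43 CPM in WT, from 0.138 to 17.35 in clone 1 and from 0.0877 to 10.96 in clone 2. The part of these shifts in the collagen results was not tested, and the sum of 4 epithelial markers never exceeded 3.52 CPM. Chromosomes also differed as wholes between clones and WT, with medians of well expressed genes between -0.43 (chromosome 10, clone 1) and 0.46 (chromosome 15, both clones) on the log2 scale. In bulk RNA, fewer cells of a type and less RNA per cell cannot be told apart.

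Collagen transcripts formed a large and rising part of the RNA. They made up 4.69%, 4.49% and 4.38% of the counts of the 3 uninduced WT libraries and 8.14%, 8.16% and 8.31% of the stimulated ones. The means were 4.52% ± 0.155 and 8.20% ± 0.0919 (SD, n = 3), a ratio of 1.81. In clone 1 the share went from 5.00% ± 0.0443 to 7.74% ± 0.242, and in clone 2 from 5.58% ± 0.110 to 9.004% ± 0.138. No library of a stimulated group overlapped an uninduced one of its genotype. With 3 libraries against 3, the two-sided exact permutation test gave its smallest possible p, 0.1, for all 9 pairs of groups compared, so the test cannot pass 0.05. Most of these counts belonged to *Col1a1*, *Col1a2* and *Col3a1*, which together held 72.0% ± 0.547 of the collagen counts in uninduced and 76.9% ± 0.486 in stimulated WT cells.

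Type I and III chains headed the order of levels in WT cells. Levels are given here as CPM per kilobase of the transcript with the longest coding sequence. In uninduced WT cells, *Col1a2* (2113 ± 78.7) led, followed by *Col1a1* (1590 ± 46.8) and *Col3a1* (1578 ± 70.5), which did not differ beyond their spread. With the length column of the deposited table instead, *Col1a1* was first. *Col6a1* (630 ± 17.2), *Col6a2* (426 ± 9.12) and *Col5a2* (189 ± 7.24) came next. *Col2a1* (131 ± 7.99) was followed by *Col4a2* (102 ± 8.58), *Col5a1* (101 ± 2.88) and *Col4a1* (95.3 ± 4.59), and these last 3 lay within their spread. In stimulated WT cells *Col1a1* was first at 4867 ± 91.4, then *Col3a1* at 3523 ± 43.7 and *Col1a2* at 3400 ± 20.3, and the type V chains *Col5a2* (737 ± 10.9) and *Col5a1* (530 ± 14.2) had passed both type VI chains. Stimulated clones differed from WT in the place of type IV: *Col4a1* was the fourth chain in clone 1 (937 ± 58.4) and the fifth in clone 2 (668 ± 38.0), against the ninth in WT (184 ± 12.8). The map of all 33 tested members shows these bands.

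**Figure D1:**
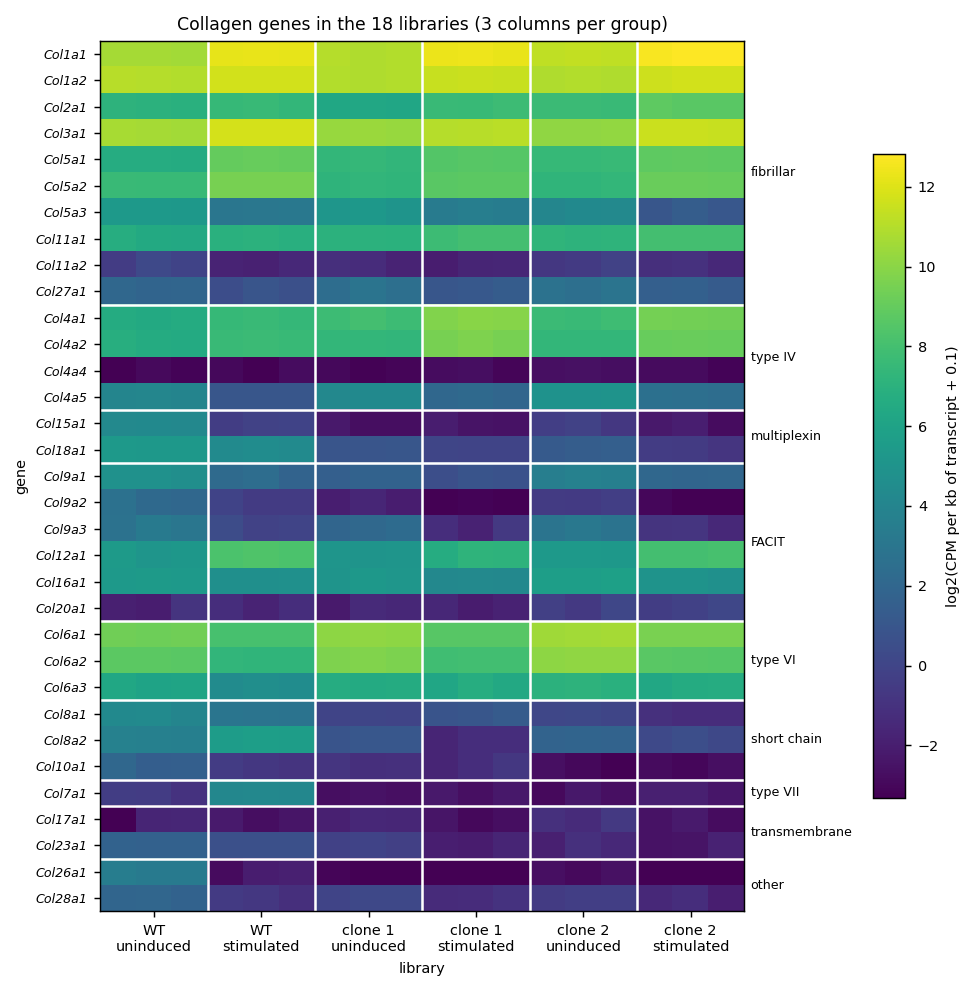
Level of the 33 collagen genes that passed the filter (rows, grouped by class) in the 18 libraries (columns, 3 per group), as log2 of CPM per kilobase of transcript plus 0.1. The *Col1a1* and *Col1a2* rows are among the brightest in every column, with *Col3a1* below *Col6a1* in uninduced clone 2 (1144 and 1523 CPM per kilobase), while *Col7a1* is bright only in the 3 stimulated WT columns and *Col26a1* only in the 3 uninduced WT columns.

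The members were tested in a fit over all 14317 genes that passed the filter on low counts. Of the 44 members, 33 passed. The 11 that did not were *Col24a1*, *Col4a3*, *Col4a6*, *Col14a1*, *Col19a1*, *Col22a1*, *Col6a4*, *Col6a5*, *Col6a6*, *Col13a1* and *Col25a1*. *Col13a1* and *Col6a4* had no count in any library, and the other 9 had at most 30 counts over the 3 libraries of a group. A gene is called a DEG below at an adjusted p under 0.05 (edgeR quasi-likelihood, Benjamini-Hochberg) and an absolute log2 fold change over 1. Nothing in the sources says that replicates were separate cultures, so p-values measure only the spread between these libraries. All counts of DEGs among members below are of those 33, some of which passed only through the group in which they were high.

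The first question was how collagen genes respond to TGF-β1 + DMII in WT cells. Of the 33 tested members 7 rose, against 6.25% of all tested genes, and 16 fell, against 13.6%. The median log2 fold change was -0.88 for the members and -0.04 for all tested genes. Of 10 tested fibrillar chains 4 rose and 3 fell, all 3 tested type VI chains fell, and of 6 tested FACITs 1 rose and 3 fell.

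Among fibrillar chains, *Col1a1*, the α1 chain of type I collagen, measured 9601, 9571 and 9106 CPM uninduced and 28840, 29420 and 28330 stimulated. It rose by a log2 fold change of 1.61 ± 0.04 (SE; adjusted p = 7.6e-24). Its partner *Col1a2* went from 11690, 11350 and 10850 to 18220, 18270 and 18060 CPM, a log2 fold change of 0.69 ± 0.04 that was below the fold threshold. *Col3a1* had 9147, 8821 and 8366 CPM uninduced and 19680, 19330 and 19800 stimulated, and rose by 1.16 ± 0.04. None of these 3 genes had overlapping groups.

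The type V chains diverged. *Col5a1*, whose product starts fibril assembly, went from 869, 862 and 824 CPM to 4392, 4594 and 4384, a log2 fold change of 2.39 ± 0.04 (adjusted p = 2.2e-27). *Col5a2* went from 1309, 1222 and 1230 to 4922, 4928 and 4799 CPM (1.96 ± 0.04). *Col5a3*, the third chain of the type, moved the other way, from 260, 245 and 238 CPM to 49.2, 50.7 and 52.3 (-2.29 ± 0.08). The type XI chain *Col11a2* (-1.98 ± 0.30) and *Col27a1* (-1.35 ± 0.13) also fell. *Col2a1*, the main cartilage collagen, had 702, 683 and 624 CPM uninduced and 902, 943 and 841 stimulated (0.42 ± 0.05), and *Col11a1* had a log2 fold change of 0.40 ± 0.07. Both were below the fold threshold.

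The largest rise was that of *Col7a1*, the chain of anchoring fibrils. It had 6.06, 5.77 and 3.89 CPM in the uninduced WT libraries and 162, 172 and 166 in the stimulated ones, 316 counts in all against 10962. Its log2 fold change was 5.02 ± 0.15 (adjusted p = 2.8e-19), a 32.4-fold rise. *Col12a1*, a FACIT of dense connective tissue, went from 507, 387 and 423 to 3494, 3826 and 3510 CPM (3.04 ± 0.12). *Col8a2*, a chain of the network of the corneal endothelium, went from 59.3, 56.1 and 54.9 to 207, 225 and 223 CPM (1.95 ± 0.07). For all of these, every stimulated library lay above every uninduced one.

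The 3 type VI chains were among the 16 that fell. *Col6a1* went from 2653, 2512 and 2583 CPM to 1159, 1151 and 1118 (-1.18 ± 0.04). *Col6a2* went from 1719, 1676 and 1647 to 613, 598 and 588 (-1.49 ± 0.04), and *Col6a3* from 799, 660 and 681 to 220, 258 and 231 (-1.59 ± 0.13). The 3 chains of 1 heterotrimer thus fell together. *Col4a5*, of the minor type IV network, went from 106, 110 and 103 to 12.3, 12.3 and 12.5 CPM (-3.10 ± 0.07). The major chains *Col4a1* (653, 596 and 643 CPM, then 1202, 1306 and 1138) and *Col4a2* (718, 636 and 613, then 1259, 1336 and 1208) had log2 fold changes of 0.95 ± 0.07 and 0.95 ± 0.05, just inside the threshold. Without replicate 3 of stimulated WT both passed it (1.01 and 1.004), as *Col4a2* did without replicate 1 of uninduced WT (1.02). *Col4a1* lies on chromosome 8 from 11198423 to 11312826 on the minus strand and *Col4a2* from 11312805 to 11449287 on the plus strand, so their first exons overlap by 22 bases. *Col4a4* had at most 10 counts in a WT library.

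*Col15a1*, a multiplexin, went from 98.3, 104 and 97.0 CPM to 3.47, 4.19 and 4.37 in WT cells, a log2 fold change of -4.63 ± 0.15 (adjusted p = 9.5e-22). *Col26a1* fell furthest, from 30.9, 26.2 and 26.5 CPM to 0.0978, 0.389 and 0.451, or 1727 counts against 21 (-6.43 ± 0.29). Its function is little known. The 3 chains of the FACIT type IX, a cartilage collagen, also fell, with log2 fold changes of -2.61 ± 0.11 for *Col9a1*, -2.87 ± 0.25 for *Col9a2* and -3.07 ± 0.20 for *Col9a3*. Falls were also called for *Col28a1* (-2.94 ± 0.21), *Col10a1* (-2.60 ± 0.30), the hypertrophic cartilage collagen, *Col8a1* (-1.37 ± 0.09) and *Col23a1* (-1.15 ± 0.19). Markers of chondrocytes, which make types IX and X, were also lower. Of 5 such markers, 4 averaged at least 1 CPM in uninduced and 1, *Sox9*, in stimulated WT cells. *Acan*, the cartilage proteoglycan, went from 8.76 ± 1.15 to 0.36 ± 0.14 CPM, *Hapln1* from 4.20 ± 0.927 to 0.20 ± 0.10 and *Matn3* from 2.645 ± 0.332 to 0.36 ± 0.11. The summed level of the 5 was 438 to 492 CPM and then 252 to 290, most of it *Sox9*, and *Matn1* was at 0 after stimulation. The cartilage collagens *Col2a1* and *Col11a1* did not fall, at 131 and 93.3 CPM per kilobase uninduced and 175 and 123 stimulated. The part of the markers in the falls was not tested. *Col18a1*, the source of endostatin, had -0.88 ± 0.06, *Col16a1* -0.67 ± 0.06, *Col17a1* -0.81 ± 0.63 and *Col20a1* 0.14 ± 0.40, none of them a DEG.

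Each clone had the same stimulus, and this comparison asks which collagen genes responded in the 2 lines labelled FOXS1 KO. In clone 1, 8 of 33 members rose (5.95% of all tested genes) and 13 fell (10.7%). In clone 2, 9 rose (6.46%) and 16 fell (11.2%). The members' median was -0.18 in clone 1, without *Col26a1*, which had 1 count there, and -0.96 in clone 2, against -0.02 for all tested genes in each. The 4 members *Col1a1*, *Col5a1*, *Col5a2* and *Col12a1* rose in all 3 genotypes. A further 10 fell in all 3: *Col4a5*, *Col5a3*, *Col6a1*, *Col6a2*, *Col9a1*, *Col9a2*, *Col9a3*, *Col23a1*, *Col27a1* and *Col28a1*. The share of all tested genes called in all 3 genotypes was not counted, so these numbers do not set collagens apart from other genes.

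*Col1a1* had 12230, 11420 and 12060 CPM in uninduced and 30340, 32380 and 30180 in stimulated clone 1 (1.38 ± 0.04), and 14670, 15330 and 14560 against 37900, 41960 and 42840 in clone 2 (1.46 ± 0.04). *Col1a2* measured 10470, 10180 and 10440, then 15000, 15580 and 15170 CPM in clone 1, and 10090, 10590 and 10400, then 16450, 17760 and 17630 in clone 2. *Col3a1* went from 7119, 7405 and 7159 to 11790, 11910 and 12480 CPM in clone 1 (0.74 ± 0.04, below the fold threshold) and from 6212, 6276 and 6614 to 16630, 16150 and 15920 in clone 2 (1.35 ± 0.04). In each genotype, no stimulated library of these 3 genes overlapped an uninduced one.

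The type V chains and *Col12a1* kept their WT directions. *Col5a1* went from 1374, 1445 and 1325 to 3018, 3331 and 3153 CPM in clone 1 (1.20 ± 0.04) and from 1500, 1542 and 1571 to 3774, 3975 and 3843 in clone 2 (1.33 ± 0.04). *Col5a2* went from 972, 1052 and 980 to 2682, 2801 and 2861 CPM in clone 1 (1.47 ± 0.04) and from 1005, 1009 and 1093 to 3774, 3666 and 3580 in clone 2 (1.83 ± 0.04). *Col5a3* fell in both, from 214, 239 and 203 to 63.2, 71.9 and 66.1 CPM (-1.70 ± 0.08) and from 104, 125 and 120 to 11.5, 15.9 and 12.0 (-3.15 ± 0.10). Uninduced *Col5a1* libraries of both clones already lay above the uninduced WT libraries and their stimulated libraries below the stimulated WT libraries. *Col12a1* went from 399, 368 and 392 to 1194, 1651 and 1604 CPM in clone 1 (1.94 ± 0.12) and from 489, 471 and 452 to 2928, 2992 and 3233 in clone 2 (2.70 ± 0.12), the largest rise there.

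The major type IV chains rose in both clones and passed the threshold there. *Col4a1* went from 1425, 1680 and 1441 CPM to 5792, 6563 and 6230 in clone 1 (2.03 ± 0.07) and from 1341, 1290 and 1462 to 4637, 4476 and 4144 in clone 2 (1.70 ± 0.07). *Col4a2* went from 1041, 1084 and 1003 to 4672, 5293 and 4782 CPM in clone 1, the largest rise of any member there (2.24 ± 0.05), and from 1067, 1071 and 1074 to 3516, 3687 and 3402 in clone 2 (1.72 ± 0.05). *Col2a1* also rose in both, by 1.33 ± 0.05 and 1.06 ± 0.05.

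*Col7a1* stayed near the bottom of the scale in the clones. It had 0.461, 0.697 and 0.518 CPM uninduced and 1.06, 0.553 and 0.957 stimulated in clone 1 (0.57 ± 0.40, adjusted p = 0.25). In clone 2 it had 0.312, 0.974 and 0.522, then 1.51, 1.50 and 0.902 CPM. That rise was called (1.27 ± 0.36, adjusted p = 0.0041), although its groups overlapped, and without replicate 1 of the uninduced libraries it was 0.74 and no DEG. *Col8a2*, which rose in WT, fell from 7.38, 8.42 and 8.44 to 0.958, 1.44 and 1.41 CPM in clone 1 (-2.64 ± 0.14) and from 14.97, 15.8 and 14.8 to 4.59, 5.95 and 4.51 in clone 2 (-1.60 ± 0.10). *Col8a1* rose in clone 1 alone, from 4.66, 4.72 and 4.56 to 8.89, 9.66 and 11.9 CPM (1.13 ± 0.13), and fell in clone 2 (-1.57 ± 0.17).

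The plot of responses sets the 3 genotypes side by side. Falls called in clones 1 and 2 were -1.46 ± 0.04 and -1.01 ± 0.04 for *Col6a1* and -1.80 ± 0.04 and -1.49 ± 0.04 for *Col6a2*. The call of *Col6a1* in clone 2 was lost without 1 of 3 libraries (-0.99 in place of -1.01). *Col6a3* was no DEG in either clone: it had 1019, 953 and 991, then 745, 1074 and 863 CPM in clone 1 (-0.14 ± 0.12) and 1366, 1387 and 1250, then 826, 1003 and 1018 in clone 2 (-0.49 ± 0.12). *Col4a5* fell from 120, 129 and 130 to 26.9, 29.9 and 25.1 CPM in clone 1 (-2.21 ± 0.07) and from 198, 191 and 207 to 39.8, 38.8 and 34.8 in clone 2 (-2.40 ± 0.06). *Col9a3* fell from 11.5, 12.8 and 14.8 to 1.01, 0.590 and 1.69 CPM in clone 1 (-3.60 ± 0.24) and from 21.9, 26.0 and 21.5 to 1.35, 1.37 and 0.782 in clone 2 (-4.30 ± 0.24). The fall of *Col9a1* in clone 1 lay at the threshold (-1.002 ± 0.14) and lost its call without any of 4 libraries (-0.91 to -0.99). *Col8a2*, *Col17a1* and *Col18a1* fell in both clones without a called fall in WT, the last by -1.05 ± 0.10 and -2.16 ± 0.11. The call of *Col17a1* in clone 1 was lost without replicate 2 of the stimulated libraries. *Col15a1*, at 12 counts or fewer in each uninduced library of clone 1, had 0.35 ± 0.43 there and fell in clone 2 (-2.71 ± 0.27). *Col23a1* fell in clone 2 (-1.17 ± 0.34) with groups that overlapped, and this call was lost without any of 3 libraries (-0.84 to -0.98). *Col26a1* had 12 counts in uninduced and none in stimulated clone 2, at least 2.35-fold lower.

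In stimulated cells *Col9a2* had 1 count over the 3 libraries of each clone. That is 2.82% of its uninduced level in clone 1 (95% counting interval 0.0692% to 16.98%) and 1.12% in clone 2 (0.0281% to 6.33%). With only the 2 groups compared in the fit, the filter on low counts was applied anew, and its fall in clone 1 had no recomputed value.

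**Figure D2:**
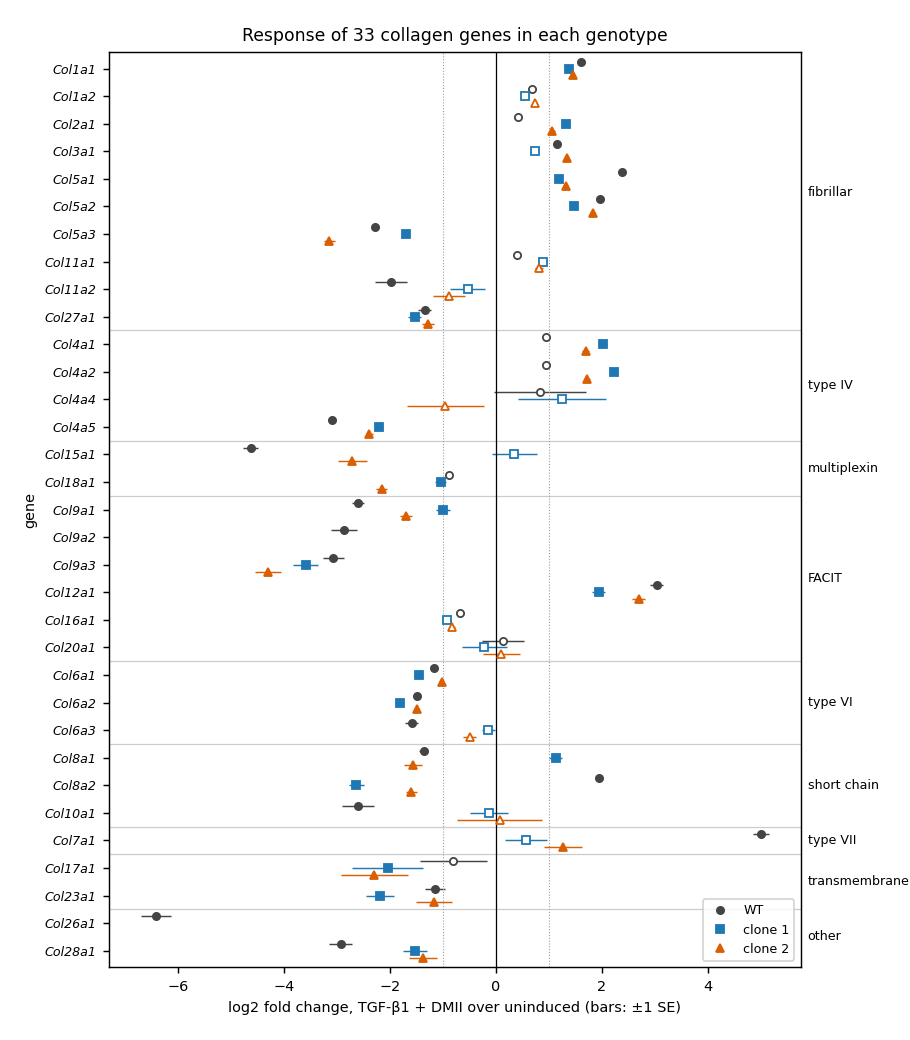
Log2 fold change of TGF-β1 + DMII stimulated over uninduced cells (x axis) for each tested collagen gene (y axis) in WT (circles), clone 1 (squares) and clone 2 (triangles), with bars of 1 SE, filled symbols for DEGs and dotted lines at the fold threshold. *Col26a1* in the clones and *Col9a2* in the clones are left out because a group held at most 3 counts. The WT circle of *Col7a1* stands at 5.02, far right of both clones.

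Whether the response itself differed between a clone and WT was tested as an interaction. Relative to the WT response, 9 members had a higher response in clone 1 (5.34% of tested genes) and 5 a lower one (3.46%). For clone 2 these were 5 (4.89%) and 6 (2.96%). The 2 comparisons share the WT libraries. *Col7a1* had interaction terms of -4.45 ± 0.52 in clone 1 and -3.75 ± 0.44 in clone 2, and *Col8a2* had -4.58 ± 0.15 and -3.55 ± 0.12. The lesser rise of *Col5a1* also passed, at -1.19 ± 0.06 and -1.06 ± 0.06. *Col6a3* (1.45 ± 0.18 and 1.10 ± 0.18), *Col15a1* (4.98 ± 0.48 and 1.92 ± 0.40), *Col28a1* (1.41 ± 0.31 and 1.56 ± 0.34), *Col10a1* (2.47 ± 0.47 and 2.67 ± 0.94) and *Col11a2* (1.45 ± 0.44 and 1.10 ± 0.42) had a response less negative in the clones than in WT. The call of *Col11a2* in clone 2 was lost under DESeq2 and without any of 8 libraries. All but *Col6a3* of these 5 were already lower in the uninduced cells of a clone, with 22 and 306 counts of *Col15a1* against 6225 in WT. Called in clone 1 and not in clone 2, *Col4a1* (1.08 ± 0.10), *Col4a2* (1.28 ± 0.07), *Col8a1* (2.50 ± 0.16) and *Col9a1* (1.61 ± 0.18) had a higher and *Col12a1* (-1.10 ± 0.16) and *Col23a1* (-1.05 ± 0.33) a lower response. *Col12a1* had -0.97 without replicate 1 of stimulated clone 1, and *Col23a1* -0.88 without replicate 2 of stimulated clone 1 and -0.99 without replicate 2 of uninduced clone 1, all below the fold threshold. In clone 2 the type IV terms were 0.75 ± 0.10 and 0.77 ± 0.07 and that of *Col9a1* was 0.91 ± 0.16. All 3 passed the adjusted p but lay below the fold threshold, and *Col9a1* passed it without replicate 2 of stimulated WT (1.065). The term of *Col10a1* in clone 2 was 3.77 without replicate 1 of uninduced clone 2, and lost its adjusted p without any of 3 other clone 2 libraries (2.28 to 2.72). *Col9a3* (-1.23 ± 0.34) and *Col18a1* (-1.28 ± 0.13) responded lower in clone 2. *Col1a1* differed by -0.24 ± 0.06 and -0.15 ± 0.06, below the fold threshold.

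Levels in uninduced clones were compared with WT next. Of 33 members 1 was higher in clone 1 (6.32% of tested genes) and 12 were lower (8.73%). In clone 2, 6 were higher (5.54%) and 12 lower (9.56%). Medians were -0.26 and -0.10, with -0.01 and -0.02 for all tested genes. *Col4a1* was higher in both clones, by 1.26 ± 0.07 and 1.11 ± 0.07. *Col7a1*, *Col8a1*, *Col8a2*, *Col9a1*, *Col9a2*, *Col10a1*, *Col15a1*, *Col18a1*, *Col23a1*, *Col26a1* and *Col28a1* were lower in both. Both comparisons use the same WT libraries, and the share of all tested genes called in both was not counted.

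The 2 multiplexins illustrate the size of these gaps. *Col15a1* had 98.3, 104 and 97.0 CPM in WT, 0.615, 0.268 and 0.259 in clone 1 (-8.01 ± 0.21) and 3.64, 4.25 and 2.72 in clone 2 (-4.80 ± 0.15). *Col18a1* averaged 224 ± 8.78 CPM in WT, 10.3 ± 0.297 in clone 1 and 14.5 ± 1.38 in clone 2, or -4.43 ± 0.08 and -3.96 ± 0.07. Of the 10 tested genes next to *Col15a1* on chromosome 4, 3 were lower by more than 1 on the log2 scale in each clone, and their median was -0.33 in clone 1 and -0.87 in clone 2. *Col26a1* had 1 count over the 3 libraries of clone 1, which is 0.0629% of the WT level (95% counting interval 0.00159% to 0.351%), and 12 counts in clone 2 (-7.57 ± 0.32).

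*Col10a1* had 12.9, 8.44 and 8.81 CPM in WT, 1.43, 1.13 and 1.14 in clone 1 (-3.02 ± 0.32) and 10 counts over the 3 libraries of clone 2 (-6.38 ± 0.42). *Col9a2* had 18.7, 13.4 and 11.9 CPM in WT, 0.461, 0.697 and 0.414 in clone 1 (-4.79 ± 0.30) and 1.76, 1.64 and 2.09 in clone 2 (-3.00 ± 0.25). *Col7a1* was 9.13-fold and 9.43-fold lower. None of its 10 flanking genes was lower by more than 1 in a clone, in either treatment. Among these genes, no WT library overlapped a clone library. Without replicate 1 of uninduced clone 2, *Col10a1* was at -7.48 there. *Acan* was at 0 in uninduced clone 1 and had 6 counts over the 3 libraries of uninduced clone 2, against 539 in WT, while *Sox9* had 541 and 544 CPM in the clones and 443 in WT. The part of this marker list was not tested.

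Fewer members were higher in uninduced clones. *Col6a1* had 4415, 4542 and 4377 CPM in clone 1 (0.78 ± 0.04) and 6096, 6203 and 6428 in clone 2 (1.27 ± 0.04), and *Col6a2* had 3281, 3494 and 3195 (0.98 ± 0.04) and 4318, 4459 and 4460 (1.39 ± 0.04). Both were DEGs in clone 2 alone, although *Col6a2* passed in clone 1 without replicate 3 of that group (1.01). They lie on chromosome 10, whose well expressed genes had a median of -0.41 against WT for clone 1 but 0.07 for clone 2. *Col4a4* (1.99 ± 0.79), *Col17a1* (1.35 ± 0.56) and *Col20a1* were also higher in clone 2. The calls of *Col4a4* and *Col17a1* were lost under several settings. *Col17a1* had 0, 1.21 and 1.30 CPM in WT and 2.097, 1.64 and 2.96 in clone 2, and *Col20a1* had 0.757, 0.629 and 1.98 against 3.24, 2.48 and 4.46 (1.52 ± 0.38, or 2.28 without replicate 3 of WT). *Col4a4* had at most 26 counts in a library. In single clones *Col11a2* was lower in clone 1 (-1.55 ± 0.29) and *Col5a3* in clone 2 (-1.09 ± 0.08). The fibrillar genes *Col1a1*, *Col1a2*, *Col3a1*, *Col5a1* and *Col5a2* differed from WT by 0.85 or less in size and were no DEGs.

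**Figure D3:**
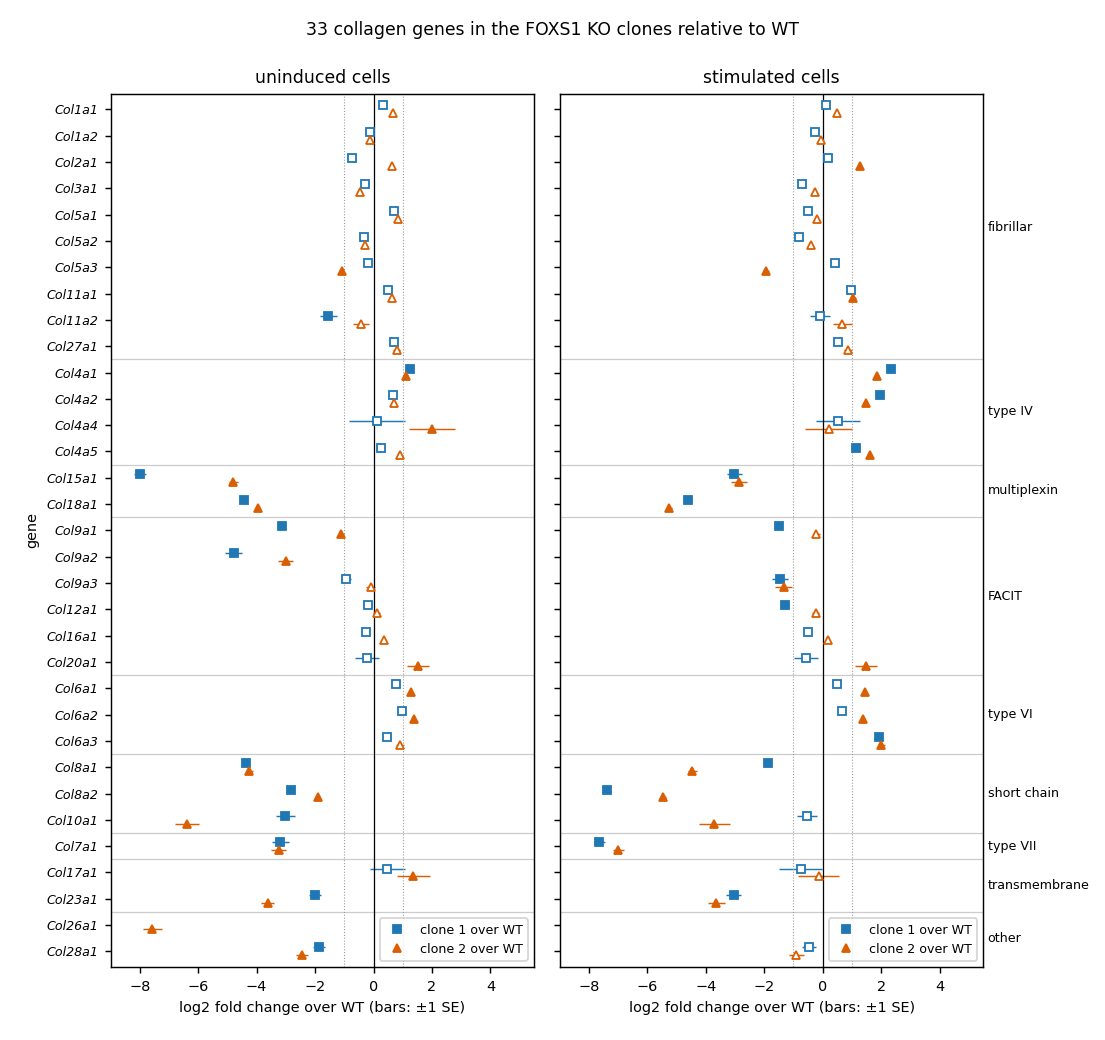
Log2 fold change of clone 1 (squares) and clone 2 (triangles) over WT (x axis) for each tested collagen gene (y axis), in uninduced cells on the left and stimulated cells on the right, with bars of 1 SE, filled symbols for DEGs and dotted lines at the fold threshold. Points where a group held at most 3 counts (*Col26a1* except in uninduced clone 2, and *Col9a2* when stimulated) are left out. *Col7a1* reaches -7.64 and -6.99 in stimulated cells while *Col1a1* stays between 0.10 and 0.66 in both panels.

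After stimulation, the clones were compared with WT again. Of 33 members 4 were higher in clone 1 (9.42% of tested genes) and 11 lower (9.6%), and 9 were higher in clone 2 (7.95%) and 11 lower (8.94%). With *Col26a1* at its bound, the members' medians were -0.50 and -0.21, and those of all tested genes -0.02 and -0.01. Lower in both clones were *Col7a1*, *Col8a1*, *Col8a2*, *Col9a2*, *Col9a3*, *Col15a1*, *Col18a1*, *Col23a1* and *Col26a1*. Higher in both were *Col4a1*, *Col4a2*, *Col4a5* and *Col6a3*. Here too the WT libraries are shared, and the share of all tested genes called in both clones was not counted.

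*Col7a1* had 3306 to 3970 counts in each stimulated WT library and 15 to 27 in each stimulated library of a clone. The log2 fold changes were -7.64 ± 0.19 in clone 1 (adjusted p = 5.4e-21) and -6.99 ± 0.19 in clone 2 (adjusted p = 2.5e-20), or 199.5-fold and 127-fold lower. *Col8a2* followed with -7.39 ± 0.11 and -5.45 ± 0.09, its WT libraries lying at 207 to 225 CPM and those of the clones at or below 5.95. *Col18a1* was lower by 4.60 ± 0.08 and 5.25 ± 0.09 on the log2 scale. The summed contractile markers stood at 1981 to 2135 CPM in these stimulated WT libraries and at 298 to 339 in those of the clones. Nearly all of that sum was *Acta2*, and its part was not tested. The 9 that were lower in both clones also included *Col8a1* (-1.87 ± 0.10 and -4.46 ± 0.14), *Col15a1* (-3.03 ± 0.25 and -2.88 ± 0.27) and the transmembrane *Col23a1* (-3.04 ± 0.25 and -3.64 ± 0.28, the latter -4.24 without replicate 3 of stimulated clone 2). *Col9a3* was at -1.46 ± 0.28 and -1.33 ± 0.30. *Col9a1* (-1.51 ± 0.13) was lower in clone 1 and *Col10a1* (-3.71 ± 0.53) in clone 2. *Col9a2*, at 1 count in each clone against 130 in WT, stood at 0.746% (95% counting interval 0.0187% to 4.23%) and 1.02% (0.0255% to 5.77%) of the WT level. *Col26a1* had 21 counts in WT and none in either clone, at least 7.22-fold lower in clone 1 and 5.30-fold lower in clone 2 against a floor of 3 counts over the group.

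Several type IV and VI genes were higher. *Col4a1* was 5.10-fold higher in clone 1 (2.35 ± 0.07) and 3.64-fold in clone 2 (1.86 ± 0.07). *Col4a2* was 3.88-fold and 2.79-fold higher. *Col4a5* had 12.3, 12.3 and 12.5 CPM in WT, 26.9, 29.9 and 25.1 in clone 1 and 39.8, 38.8 and 34.8 in clone 2 (1.14 ± 0.08 and 1.61 ± 0.08). *Col6a3* was higher by 1.92 ± 0.13 and 2.00 ± 0.13, and no clone library of these 4 genes overlapped a WT library. *Col6a1* had 1611, 1631 and 1620 CPM in clone 1 (0.50 ± 0.04) and 3168, 3053 and 3058 in clone 2 (1.44 ± 0.04), and *Col6a2* had 939, 969 and 949 (0.67 ± 0.04) and 1628, 1580 and 1508 (1.39 ± 0.04). Again they were DEGs in clone 2 alone, with chromosome 10 medians of -0.43 and 0.05. *Col2a1* was higher in clone 2 (1.27 ± 0.05) and had 0.17 ± 0.05 in clone 1. *Col11a1*, its partner in cartilage fibrils, had 930, 1021 and 875 CPM in WT, 1675, 1982 and 1935 in clone 1 (0.98 ± 0.07) and 1972, 1949 and 1934 in clone 2, a DEG there (1.05 ± 0.07). Without replicate 3 of stimulated WT it was at 0.999 in clone 2 and no DEG, and in clone 1 it became one without replicate 2 of stimulated WT (1.05) or replicate 1 of stimulated clone 1 (1.06). *Col20a1* was also higher in clone 2 (1.49 ± 0.38). *Col2a1* lies on chromosome 15, whose genes had medians of 0.45 and 0.43.

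Chains of types I, III and V were mostly no DEGs after stimulation. *Col5a1* had 3018, 3331 and 3153 CPM in clone 1 (-0.49 ± 0.04) and 3774, 3975 and 3843 in clone 2 (-0.21 ± 0.04). *Col5a2* had 2682, 2801 and 2861 (-0.81 ± 0.04) and 3774, 3666 and 3580 CPM (-0.41 ± 0.04). *Col3a1* was at -0.70 ± 0.04 and -0.27 ± 0.04 and *Col1a2* at -0.25 ± 0.04 and -0.07 ± 0.04. *Col1a1* was at 0.10 ± 0.04 and 0.50 ± 0.04. None of these passed the fold threshold, although all but *Col1a2* in clone 2 passed the adjusted p. *Col5a3* had 63.2, 71.9 and 66.1 CPM in clone 1 (0.40 ± 0.08) and 11.5, 15.9 and 12.0 in clone 2, where it was lower (-1.95 ± 0.10). *Col12a1* was lower in clone 1 alone, at 1194, 1651 and 1604 CPM (-1.28 ± 0.12), and had 2928, 2992 and 3233 in clone 2 (-0.24 ± 0.11).

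**Figure D4:**
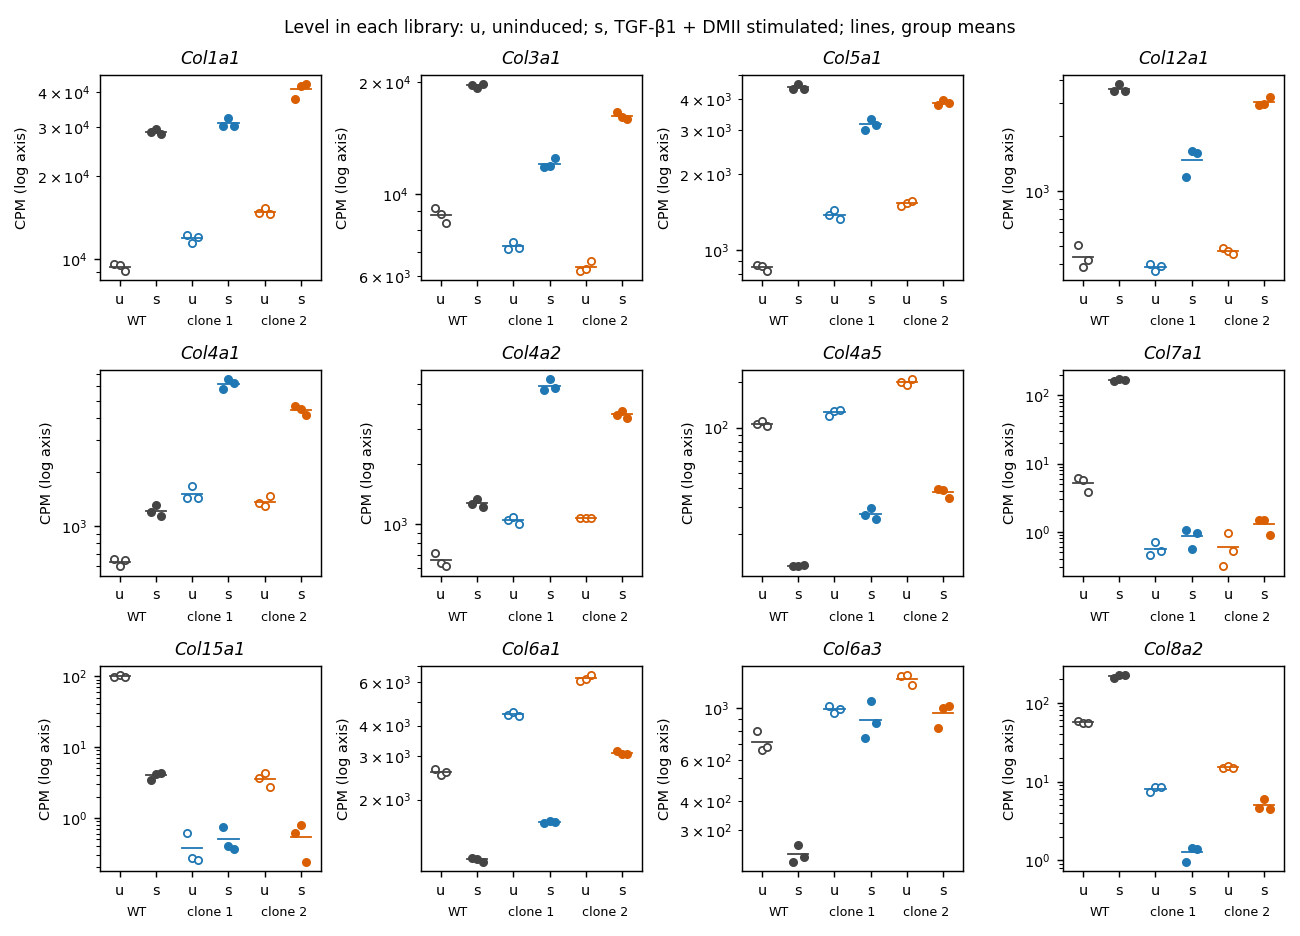
CPM of 12 collagen genes in each library (points) with the group mean (line) on log axes that differ between panels, uninduced (u, open) and stimulated (s, filled). *Col7a1* lies at 162 to 172 CPM in the stimulated WT libraries and at most 1.51 in every clone library, while the *Col4a1* points of stimulated clones lie above those of stimulated WT.

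The clones were also compared with each other. In uninduced cells 2 of 33 members were higher in clone 1 than in clone 2 (4.89% of tested genes) and 7 lower (3.78%). In stimulated cells these were 3 (5.5%) and 5 (4.48%). *Col10a1* was higher in clone 1 in both treatments, by 3.37 ± 0.49 and 3.17 ± 0.55, with 6 to 10 counts over the 3 libraries of clone 2. The first value was 4.46 without replicate 1 of uninduced clone 2. *Col23a1* was higher in uninduced clone 1 (1.62 ± 0.24). Lower there were *Col15a1* (-3.21 ± 0.28), *Col9a1* (-1.99 ± 0.12), *Col9a2* (-1.78 ± 0.33), *Col20a1* (-1.75 ± 0.39), *Col2a1* (-1.36 ± 0.05), *Col11a2* (-1.11 ± 0.30) and *Col26a1*. The last of these had 1 count against 12, or 12.3% of the level of clone 2 (95% counting interval 0.287% to 83.0%), and its call was lost without any of 4 libraries. That of *Col11a2* was lost without replicate 3 of either uninduced clone (-0.93 and -0.91). After stimulation *Col8a1* (2.59 ± 0.16) and *Col5a3* (2.36 ± 0.10) were higher in clone 1. *Col20a1* (-2.07 ± 0.40), *Col8a2* (-1.94 ± 0.16), *Col9a1* (-1.29 ± 0.14), *Col2a1* (-1.09 ± 0.05) and *Col12a1* (-1.04 ± 0.11) were lower, the last of them only -0.91 and -0.9969 without replicate 1 of clone 1 or replicate 3 of clone 2.

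Ratios between chains that share a molecule were taken within each library, per kilobase of transcript. Type I collagen has 2 α1 chains for each α2 chain. The *Col1a1* to *Col1a2* ratio was 0.753 ± 0.0106 in uninduced and 1.43 ± 0.0191 in stimulated WT cells (SD, n = 3). It went from 1.04 ± 0.0219 to 1.83 ± 0.0408 in clone 1 and from 1.29 ± 0.0263 to 2.13 ± 0.0569 in clone 2. No 2 groups overlapped, and the ratio was higher in each stimulated group than in its uninduced one. The *Col3a1* to *Col1a1* ratio was 0.992 ± 0.0201 in uninduced and 0.724 ± 0.0224 in stimulated WT cells, and between 0.416 and 0.648 in the groups of the clones.

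The *Col5a1* to *Col5a2* ratio went opposite ways: from 0.536 ± 0.0177 to 0.719 ± 0.0157 in WT, from 1.09 ± 0.0250 to 0.898 ± 0.0358 in clone 1 and from 1.17 ± 0.0358 to 0.830 ± 0.0362 in clone 2. *Col4a1* and *Col4a2* kept a ratio of 0.941 ± 0.0718 and 0.934 ± 0.0178 in WT and of 1.22 to 1.42 in the clones. The *Col8a1* to *Col8a2* ratio fell from 1.44 ± 0.168 to 0.145 ± 0.0123 in WT and went from 0.490 ± 0.0410 to 6.91 ± 1.11 in clone 1. It was 0.281 ± 0.0042 and then 0.290 ± 0.0603 in clone 2. For *Col6a3* to *Col6a1* the ratio was 0.112 ± 0.00888 and 0.0840 ± 0.00704 in WT and rose from 0.0902 ± 0.00450 to 0.224 ± 0.0403 in clone 1 and from 0.0868 ± 0.00687 to 0.125 ± 0.0164 in clone 2. The absolute size of a ratio depends on the length used: with the length column of the deposited table, an alternative chosen after seeing the data, the WT *Col1a1* to *Col1a2* ratios were 1.58 and 3.00. A ratio's order across groups does not depend on the length.

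**Figure D5:**
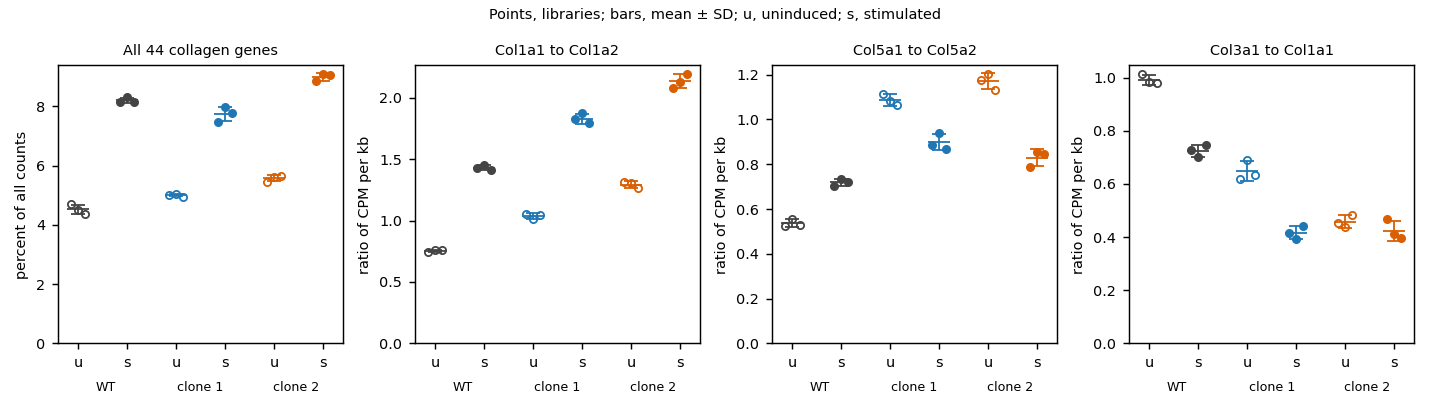
Percent of all counts on the 44 collagen genes (left) and 3 ratios of CPM per kilobase, *Col1a1* to *Col1a2*, *Col5a1* to *Col5a2* and *Col3a1* to *Col1a1*, in each library (points) with mean ± SD (bars), uninduced (u, open) and stimulated (s, filled). The *Col1a1* to *Col1a2* ratio is lowest in uninduced WT cells at 0.753 and highest in stimulated clone 2 at 2.13.

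Genes that act on collagens were described from 2 lists. Of 29 tested genes for collagen modification, folding, processing and cross-linking (31 listed), 8 rose (6.25% of all tested genes did) and 3 fell (13.6% did) in WT cells after stimulation, and the list median was 0.49. The largest rises were those of *Plod2*, a lysyl hydroxylase (2.62 ± 0.05), and *Lox*, the lysyl oxidase (2.14 ± 0.05), and the largest falls those of *Colgalt2* (101 counts against 6, -4.01 ± 0.79) and *Loxl4* (-2.45 ± 0.11). *Plod2* also rose in clones 1 and 2, by 2.45 ± 0.05 and 2.73 ± 0.05. Clone 1 had 5 rises and 4 falls in this list (5.95% and 10.7% of all tested genes), among them *P4ha3*, a prolyl hydroxylase subunit (2.095 ± 0.07), *Adamts14* (-2.03 ± 0.34) and *Pcolce2*, an enhancer of procollagen C-proteinase (-2.19 ± 0.08), and clone 2 had 6 and 5 (6.46% and 11.2%), with *Loxl3* (2.89 ± 0.06) rising furthest and *Colgalt2*, at no count in stimulated clone 2, among the falls. Against stimulated WT cells, 1 was higher and 4 lower in clone 1 (9.42% and 9.6% of all tested genes) and 2 higher and 5 lower in clone 2 (7.95% and 8.94%). *Adamts2*, the procollagen N-proteinase, was lower in both (-1.48 ± 0.06 and -1.86 ± 0.07), as was *Tll1* (-2.09 ± 0.21 and -3.75 ± 0.25), and *Loxl4* was higher in both (1.26 ± 0.11 and 2.46 ± 0.11). Among the 5 called in clone 1, *Adamts14* differed most (-3.94 ± 0.28). *Colgalt2*, with 6 counts in stimulated WT cells, was not called (adjusted p = 0.052).

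Of 9 collagen receptors 7 were tested, and 2 rose (6.25% of all tested genes) and 2 fell (13.6%) in WT cells. *Itga11*, the integrin α subunit for fibrillar collagen, rose by 4.51 ± 0.20 in WT, from 8.83 ± 1.88 to 204 ± 14.7 CPM, and by 4.16 ± 0.34 in clone 1. In stimulated cells it was lower in clone 1 (12.9 ± 3.92 CPM, -3.99 ± 0.19) and clone 2 (0.327 ± 0.276 CPM, 17 counts in all, -9.20 ± 0.32). *Itga2* rose in WT (2.42 ± 0.71) and *Itga10* fell (-2.95 ± 0.60). *Itga10* was higher in both stimulated clones (2.39 ± 0.63 and 2.19 ± 0.67), with 10 counts in WT. *Ddr2*, a receptor kinase for fibrillar collagen, passed the fold threshold in WT (-1.13 ± 0.06) and had -0.66 ± 0.06 and -0.63 ± 0.06 in clones 1 and 2. *Ddr1* passed it in clones 1 and 2 (-1.17 ± 0.05 and -1.06 ± 0.05) and had -0.735 ± 0.05 in WT. All 6 values passed the adjusted p, and the responses of both genes differed between a clone and WT by 0.50 or less, below the fold threshold.

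Some members share bases with other genes, and the strand setting of the counting is not given in the sources used here. Of the exonic bases of *Col9a3*, 6.07% lie under *Tcfl5* on the opposite strand, and of those of *Col5a1*, 2.50% lie under 2 other genes. Other members lie next to each other, such as *Col3a1* and *Col5a2* (24614 bases apart on chromosome 1) and *Col6a1* and *Col6a2* (85161 bases apart on chromosome 10). The low members showed few counts: *Col14a1* had 30 over the 3 stimulated WT libraries and 3 to 22 in each group of the clones, *Col6a6* had 24 in uninduced WT cells and none in any stimulated group, and *Col4a3* had 24 in uninduced clone 2 and none after stimulation, at least 4.70-fold lower.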

How the data were processed

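Poly(A) RNA of the 18 libraries was sequenced, and the authors aligned the reads with HISAT2 (v2.1.0; GRCm38). The deposited values are raw counts for each gene. The counting program, the annotation release and the use of strand: not given in the sources used here. All per-sample columns were mapped to a library. Counts were filtered with filterByExpr (minimum count 10), scaled with TMM and fitted with edgeR 4.0.16 (R 4.3.3; glmQLFit, robust) with 1 mean for each of 6 groups, and 11 contrasts were tested with Benjamini-Hochberg adjustment over all 14317 genes. SE is the absolute log2 fold change divided by the square root of F. The procedure was tested on simulated data. The collagen share was compared with exact permutation tests (scipy 1.17.1). Lengths, exons and coordinates came from GENCODE M21, whose coordinates matched for all 44 members. Promoter windows came from RefSeq.

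Library totals ran from 15576685 to 42005596 counts. A floor of 3 counts over a group and 95% exact binomial intervals cover counting error only. Replicate numbers showed no sign of pairing between libraries. Values in each library are given for chains of types I, III, V and VI, *Col4a1* and *Col4a2*, and up to 3 called members with the largest rise and the largest fall in each comparison with a mean of at least 1 CPM; in the pathway lists the 2 largest changes each way are named, with *Ddr2*, *Ddr1*, *Adamts2* and *Tll1* added after their values were seen. The members, classes and lists were chosen with earlier results of these data known. Alternatives were DESeq2 1.42.0, its size factors, no filter, only the groups compared, a replicate block, no fold threshold and each library left out.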

Additional observations from a re-analysis of the deposited data

Results flagged for a closer look

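The responses of 14 members differed between clone 1 and WT, and those of 11 differed between clone 2 and WT, by the interaction term of the edgeR fit. Values are differences in log2 fold change, clone minus WT. In clone 1 they were -4.58 for *Col8a2*, -4.45 for *Col7a1*, -1.19 for *Col5a1*, -1.10 for *Col12a1* and -1.05 for *Col23a1*. They were 4.98 for *Col15a1*, 2.50 for *Col8a1*, 2.47 for *Col10a1*, 1.61 for *Col9a1*, 1.45 for *Col6a3*, 1.45 for *Col11a2*, 1.41 for *Col28a1*, 1.28 for *Col4a2* and 1.08 for *Col4a1*. In clone 2 they were -3.75 for *Col7a1*, -3.55 for *Col8a2*, -3.26 for *Col9a2*, -1.28 for *Col18a1*, -1.23 for *Col9a3* and -1.06 for *Col5a1*, and 2.67 for *Col10a1*, 1.92 for *Col15a1*, 1.56 for *Col28a1*, 1.10 for *Col6a3* and 1.10 for *Col11a2*. The value of *Col9a2* rests on 1 count in the 3 stimulated libraries of clone 2 (-5.45 without replicate 1 of those), and that of *Col10a1* in clone 2 on 10 and 6 counts.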

How the results depend on the processing

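Over the recomputed values of 26 members, none changed direction, 1797 stayed on their side of the thresholds and 35 were no longer called. These totals cover 155 results of the 26 members. They leave out the other tested members, among them *Col11a1*, *Col11a2* and *Col4a4*, which each lost a call. They also count no gained calls, such as those of *Col4a1* and *Col4a2* in the WT response without 1 library. Also left out are the calls of *Col9a2* and *Col26a1* that had no recomputed value with only the groups compared in the fit. With each library left out, the members called numbered 23 to 26 for the WT response, 20 to 22 for clone 1, 23 to 25 for clone 2, 13 to 15 and 16 to 19 for clones 1 and 2 against uninduced WT, 15 to 17 and 20 to 21 against stimulated WT, 13 to 15 and 9 to 11 for the response differences, and 7 to 9 and 7 to 8 between the clones. Without the fold threshold, 29 and 30 members were called for clones 1 and 2 against uninduced WT and 27 for clone 1 against stimulated WT, 25 and 21 for the response differences and 22 and 21 between the clones. The share of all tested genes at the adjusted p alone was not counted, so these numbers are no result about collagens. As a share of TMM-scaled library sizes, collagens took 4.10% and 8.67% in WT, 4.56% and 8.34% in clone 1 and 5.20% and 10.3% in clone 2; without *Col1a1*, *Col1a2* and *Col3a1* the shares of counts were 1.27% and 1.90%, 1.77% and 2.33%, and 2.19% and 2.50%, uninduced before stimulated. The replicate numbers showed no sign of pairing: deviations of same-numbered pairs had r from -0.0412 to 0.0498, and of other pairs from -0.0873 to 0.0576. These values cannot show whether same-numbered libraries were prepared together. With a replicate block, *Col17a1* (1.42) and *Col4a4* in uninduced clone 2 against WT, *Col11a2* in the response difference of clone 2 and *Col26a1* between uninduced clones (-2.66) were no longer called, and no other call was lost. With only the groups compared in the fit, the filter on low counts was applied anew. No recomputed value was then given for *Col9a2* in the clone 1 response and *Col26a1* in the clone 2 response. The same held for *Col26a1* in both clones against stimulated WT and between uninduced clones. The calls of *Col17a1* (1.36) and *Col4a4* in uninduced clone 2 against WT were lost. *Col9a1* in clone 1 fell under the fold threshold with DESeq2 (-0.9985), its size factors (-0.99) or no filter (-0.99). *Col12a1* between stimulated clones was -0.91 and -0.9969 without replicate 1 of clone 1 or replicate 3 of clone 2. The response difference of *Col10a1* in clone 2 kept 2.28 to 2.72 but not its adjusted p without any of 3 clone 2 libraries, and was 3.77 without replicate 1 of uninduced clone 2. Depth limits members at few counts: 11 of 44 were not tested.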
